A study of Mus musculus with 12 samples.

Results

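Crypt stem cell markers are transcripts used to recognise the dividing cells at the base of the small intestinal crypt, which renew the epithelium. Here they are 10 genes taken by symbol, Lgr5, Ascl2, Smoc2, Olfm4, Tnfrsf19, Gkn3, Rgmb, Prom1, Msi1 and Mex3a, of the 55335 entries in each count table, and all 10 were found. They were measured by RNA sequencing in 12 libraries of mouse small intestinal organoids, 3 in each of 4 groups. Organoids are epithelial cultures grown from crypts in a basement membrane extract. All groups came from the line26 wild type organoids of a female Lgr5GFPDTR/+ mouse, which carries a cassette for green fluorescent protein and the diphtheria toxin receptor at Lgr5. Neither the labels nor the files say whether transcripts of the cassette allele were counted as Lgr5.

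The RANKL and RANKL II groups had 3 days of ENR medium (EGF, Noggin and R-spondin) with 3 µM CHIR99021 and 1.5 mM valproic acid, then 1 day of ENR medium, then 6 days of 100 ng/mL RANKL. RANKL is the cytokine that drives M cell differentiation. CHIR99021 blocks the kinase GSK3 and so raises Wnt activity, and valproic acid blocks histone deacetylases. The RANKL+CSRM617 group had the same with 40 µM CSRM617, a small molecule that targets ONECUT2. The ENR control group is labelled as grown in ENR medium for 6 days. Its library names begin with CVENR, and the labels do not say whether the controls also had the CHIR99021 and valproic acid step. Differences between RANKL and ENR control therefore cannot be told apart from any effect of this step. ENR control and RANKL share the first table, and RANKL II and RANKL+CSRM617 the second. The 3 libraries of a group are separate differentiation experiments on this organoid line, so p-values measure the spread between experiments and not between animals.

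Crypt stem cells depend on Wnt signalling, which R-spondin strengthens through the receptors LGR4 and LGR5. Wnt signalling with the transcription factor ASCL2 maintains their gene programme, Notch signalling keeps them from the secretory fate, and BMP signalling from the villus side restrains them. As cells leave the crypt base they pass through a transit-amplifying stage before they differentiate. The markers are not all equally specific: Prom1, Msi1 and Tnfrsf19 are also found in other cells of the crypt. In bulk RNA, fewer cells of a type and less RNA per cell cannot be told apart.

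The promoter sequences below are shown for the members with the largest rise and the largest fall under RANKL, Tnfrsf19 and Gkn3, and for Olfm4 the stretch around a match to the NF-kB consensus, the motif of the transcription factors that RANKL signalling activates. RefSeq (GRCm38.p6) gave 11 windows for 7 members, Ascl2, Olfm4, Tnfrsf19, Gkn3, Rgmb, Prom1 and Mex3a. Each window is the 250 bases before an annotated start, read 5′ to 3′ on the gene's strand, and capitals mark motif matches on either strand. The motifs searched were the TCF/LEF motif (CTTTGAT or CTTTGTT), the ONECUT core (ATTGAT), the RBPJ motif (GTGGGAA), the ASCL-type E-box (CAGCTG) and the NF-kB consensus.
Tnfrsf19, inner start, chr14:61037988-61038237, minus strand: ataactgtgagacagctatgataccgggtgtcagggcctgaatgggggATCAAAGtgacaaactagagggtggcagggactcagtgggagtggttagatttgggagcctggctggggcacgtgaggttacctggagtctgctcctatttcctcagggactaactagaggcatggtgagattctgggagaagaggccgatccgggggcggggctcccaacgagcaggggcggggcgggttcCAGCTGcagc
Gkn3, chr6:87388936-87389185, minus strand: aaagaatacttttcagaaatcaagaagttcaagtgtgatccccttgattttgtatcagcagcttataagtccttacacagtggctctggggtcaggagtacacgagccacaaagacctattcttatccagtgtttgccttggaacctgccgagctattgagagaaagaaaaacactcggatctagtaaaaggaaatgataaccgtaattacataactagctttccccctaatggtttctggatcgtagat
Olfm4, chr14:80000241-80000270, plus strand: ctggccatgGGGAAATCCCCactgggagct

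The inner Tnfrsf19 window held a TCF/LEF match 202 to 196 bases before the start and an E-box 10 to 5 bases before it. The Olfm4 window held 2 overlapping NF-kB matches, 52 to 43 and 51 to 42 bases before the start, which share the same stretch of 11 letters. This window lay inside the annotated span of Olfm4 and shared 51 bases with its annotated exons. None of the 5 motifs was found in the other Tnfrsf19 window or in the windows of Gkn3, Ascl2, Rgmb, Prom1 and Mex3a. Annotated exons covered all 250 bases of a Prom1 window and 20 bases of an Rgmb window. Of 32851 promoter windows of this length, 8.06% held the TCF/LEF motif, 6.72% the ONECUT core, 5.42% the RBPJ motif, 13% the E-box and 3.9% the NF-kB consensus. A match describes the letters and does not show that a factor bound there.

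Library totals ran from 5795541 to 14041947 counts. The share of counts at ribosomal RNA loci was 21.9% to 35.5% for ENR control libraries and 9.71% to 10.7% for RANKL libraries, and in the second pair of groups from 6.44% to 6.71% without CSRM617 and 15.3% to 15.8% with it. The mitochondrial share was 5.43% to 7.96% in ENR control, 2.52% to 2.89% with RANKL, 6.04% to 6.11% in RANKL II and 8.61% to 11.04% with CSRM617, so both shares separated the groups of each comparison. In a refit without these genes every tested member kept its direction and its side of the threshold. The part of the library differences behind these shares was not tested. Across all genes the fold changes followed transcript GC content, with a Spearman correlation over genes of -0.316 in the first comparison (13383 genes) and 0.586 in the second (13964 genes). Genes are not independent replicates, and the library differences behind this trend were not tested. Fold changes were therefore refitted with offsets that remove the GC trend of each library. The refitted values are given beside the edgeR values of some members. They are also given for other named genes where they move the value by over 1.5 times or end the call. A member value shown without one kept its direction and its call but could move, as for Mex3a with RANKL from 1.02 to 1.18. The stromal genes Col1a2, Col3a1, Dcn, Lum, Cdh5 and Kdr had 0 counts in every library, and few of the stromal, endothelial and immune genes were high enough to be tested.

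RANKL was first set against ENR control. The members split: Lgr5, Smoc2, Gkn3 and Rgmb fell, Tnfrsf19, Ascl2, Mex3a, Prom1 and Msi1 rose, and Olfm4 did not pass. Thus 5 were called higher and 4 lower of 10 tested by edgeR, where 28.7% of all 13570 genes were called higher, 28% lower and 56.7% in either direction. With GC offsets 5 were higher and 5 lower, where 27.5% of all genes were higher, 25.9% lower and 53.4% either. The groups did not overlap for any of the 10, as for 63.3% of all genes. The members' median log2 change was -0.24, beside 0.00 over all genes tested, a value that the opposite directions of the members produce.

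Lgr5, the R-spondin receptor that defines crypt base stem cells (chr10:115450311-115587780, minus strand, GRCm38, ENSMUSG00000020140), was at 408.8, 458.3 and 406.7 CPM in ENR control and at 53.1, 52.6 and 50.8 CPM with RANKL. CPM is the count relative to the library total, with the total scaled by TMM factors. Every RANKL library lay far below every control, and the RANKL libraries differed among themselves by less (CV 2.32%) than the controls (CV 6.88%). The log2 change was -3.03 (SE 0.087, edgeR adjusted p = 5.35e-13), an 8.14-fold lower level.

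The secreted and matrix members were next. Smoc2, a SPARC-related matricellular protein (chr17:14279506-14404790, plus strand), was at 574.1, 582.7 and 583.8 CPM in ENR control and at 108.8, 98.2 and 97.6 CPM with RANKL. This was the tightest control group of any member (CV 0.918%), and its log2 change was -2.51 (SE 0.0817, edgeR adjusted p = 1.99e-12). Gkn3, a gastrokine-family secreted protein (chr6:87383256-87388935, minus strand), had 55, 122 and 57 counts in ENR control and 0, 2 and 5 with RANKL. Its mean went from 13.3 ± 2.86 to 0.301 ± 0.345 CPM (SD, n = 3), and the 0 counts of RANKL replicate 1 allow up to 0.337 CPM. The log2 change was -5.51 (SE 0.413, edgeR adjusted p = 1.6e-08), the largest of any member, and larger in size than that of 99.0% of all genes tested. It rests on few counts and was -6.69 without RANKL replicate 3, and -2.21 by limma on the deposited log2 values, with the call kept in both.

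Olfm4, a secreted glycoprotein that responds to Notch signalling (chr14:79984081-80023139, plus strand), was at 531.4, 869.1 and 594.1 CPM in ENR control and at 477.8, 416.9 and 252.7 CPM with RANKL. All 3 RANKL libraries were below all 3 controls, but the gap between the nearest libraries was smaller than the spread within either group (CV 27% and 30.4%). Its log2 change of -0.80 (SE 0.291) did not pass (edgeR adjusted p = 0.0583), with adjusted p from 0.00509 to 0.245 over its alternatives. It passed with GC offsets at -1.03 (edgeR adjusted p = 0.0416), at -0.94 when ENR control replicate 1 was left out, and at -0.99 and -0.57 when RANKL replicate 1 or 3 was. It also passed with the replicate number as a block (-0.82, edgeR adjusted p = 0.0409). The 4 members called lower became 5 in these fits. In the other alternatives Olfm4 did not pass, among them the fit with both GC offsets and the block. Gm6999, a noncoding gene that shares 153 exon bases with Olfm4 on the same strand, had at most 10 counts in any library.

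Of the transcription factor and RNA-binding members, all 3 rose in this comparison. In RANKL II, which has the same treatment label and was scaled separately, their means were instead below those of ENR control. Ascl2 was at 6.99 CPM in RANKL II against 11.97 CPM in ENR control, and Msi1 at 44.72 against 75.88 CPM. Mex3a was at 31.96 against 35.17 CPM, with overlapping libraries. These differences between RANKL II and ENR control were not tested, so the rise is shown for the first table only. Ascl2, the Wnt-responsive basic helix-loop-helix factor that maintains stem cell identity (chr7:142966829-142969264, minus strand), was at 9.79, 14.0 and 12.1 CPM in ENR control and at 33.0, 28.6 and 22.3 CPM with RANKL. Its log2 change was 1.21 (SE 0.166, edgeR adjusted p = 1.47e-05), and 1.50 with GC offsets. Lgr5 and Ascl2, often used together as markers of the same cell, thus went in opposite directions between ENR control and RANKL. In RANKL II, scaled separately, both were below their ENR control means, with Lgr5 at 11.4 and Ascl2 at 6.99 CPM. Mex3a, an RNA-binding protein known from a slowly dividing subset of Lgr5-positive cells (chr3:88532395-88541396, plus strand), was at 36.5, 36.1 and 32.9 CPM in ENR control and at 79.7, 72.4 and 62.0 CPM with RANKL. Its log2 change was 1.02 (SE 0.107, edgeR adjusted p = 9.16e-07). Msi1, a translational regulator of the Musashi family (chr5:115429599-115455698, plus strand), was at 76.2, 68.2 and 83.2 against 101.2, 94.8 and 87.9 CPM. The groups came within 5 CPM of each other, and the log2 change of 0.33 (SE 0.094, edgeR adjusted p = 0.00752) became 0.59 with GC offsets.

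Besides Lgr5, the membrane members were Tnfrsf19, Rgmb and Prom1. Tnfrsf19, also called Troy, is a TNF receptor family member and a Wnt target that marks crypt stem cells (chr14:60963875-61046490, minus strand). It was at 10.9, 13.1 and 11.4 CPM in ENR control and at 74.2, 81.6 and 76.4 CPM with RANKL, so that the lowest treated library was over 5 times the highest control. The log2 change of 2.70 (SE 0.111, edgeR adjusted p = 2.06e-11) was the largest rise of a member, a 6.48-fold higher level. Rgmb, a membrane-anchored co-receptor of BMP signalling (chr17:15803188-15831039, minus strand), fell from 204.4 ± 7.84 to 91.8 ± 4.16 CPM (SD, n = 3). The fold change was -1.15 on the log2 scale (SE 0.0798, edgeR adjusted p = 7.26e-09). Prom1, the pentaspan membrane glycoprotein CD133 (chr5:43993620-44102032, minus strand), was at 151.1, 163.9 and 141.9 CPM in ENR control and at 168.1, 219.6 and 224.7 CPM with RANKL. RANKL replicate 1 lay close to the controls, and the log2 change was 0.42 (SE 0.106, edgeR adjusted p = 0.00316). Gm16401, which shares 424 exon bases with Prom1 on the opposite strand, had at most 11 counts in any library.

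**Figure D1:**
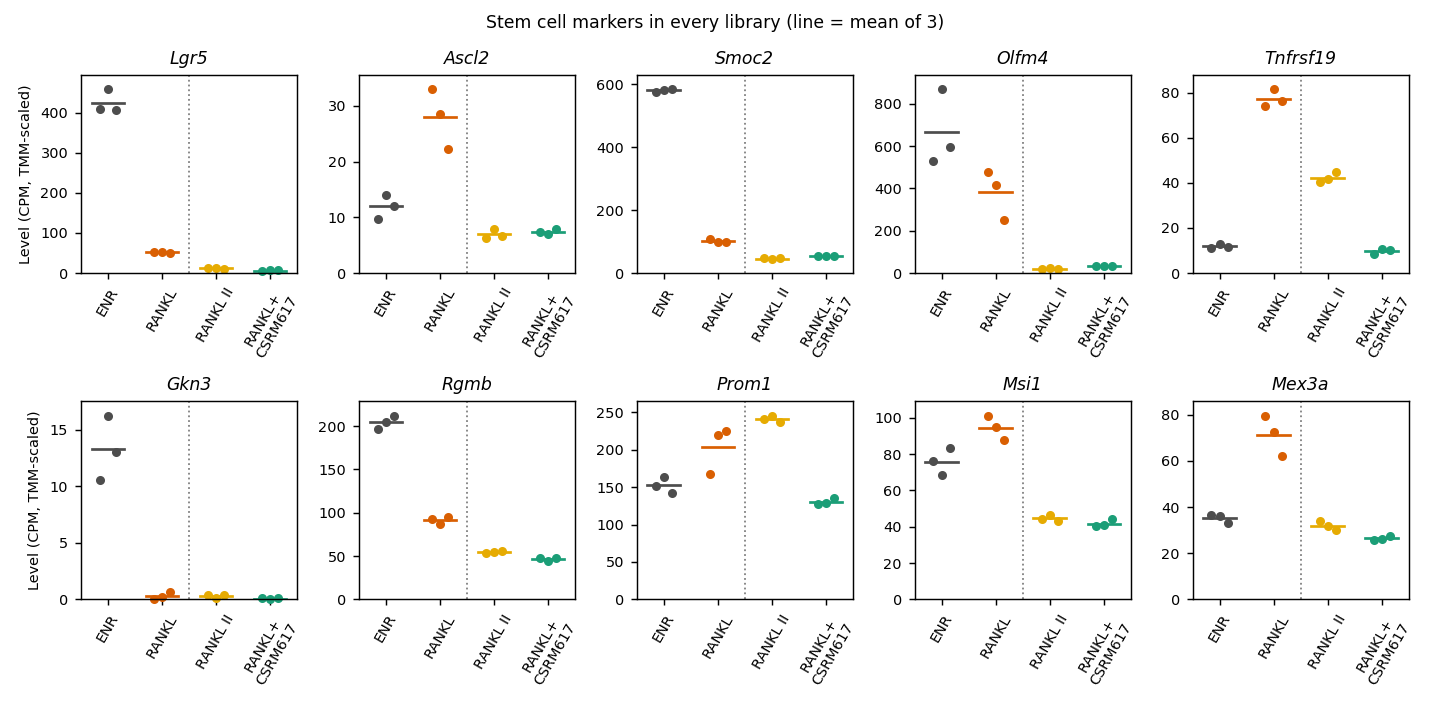
Level of each marker in every library as TMM-scaled CPM on a linear axis from 0, with 3 points and their mean line for each group. The dotted line separates the 2 tables, which were scaled separately. Lgr5, Smoc2, Gkn3 and Rgmb are lower with RANKL than in ENR control, Tnfrsf19 is higher (11.8 against 77.4 CPM on average), and with CSRM617 it is at 9.85 CPM against 42.3 CPM in RANKL II while Prom1 is at 130.5 against 241.1 CPM.

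Within a group, the same libraries were often high or low for several markers, which is given as a description of 3 libraries with no test. ENR control replicate 2 held the highest value of 6 of the 10 members, among them Lgr5, Ascl2, Olfm4 and Gkn3, and had the lowest share of ribosomal RNA loci (21.9%). RANKL replicate 1 was highest for 6 members and RANKL replicate 3 lowest for 6. Olfm4, Ascl2, Msi1 and Mex3a were each lowest in RANKL replicate 3 and highest in RANKL replicate 1.

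The list of 26 other genes of crypt stem cells and their Wnt circuit gave 23 tested, of which 14 were called lower and 6 higher, with a median log2 change of -0.48. Cdca7, a Myc-responsive gene of the crypt base, fell by 1.97 on the log2 scale, and Lrig1, a negative regulator of ErbB signalling, fell by 1.49. Soat1, Igfbp4, Sox9, the transcription factor of crypt progenitors, and Ephb2, which positions cells along the crypt, fell by 1.03, 1.04, 0.94 and 0.87. Those called higher, with log2 changes, were Clca4a at 4.20 (9 against 252 counts over the groups), Cd44, a hyaluronan receptor and Wnt target, at 1.03, Tert at 0.67, Scn2b at 0.63, Cdk6 at 0.23 and Lgr4, the broader R-spondin receptor, at 0.23. The Cdk6 call ended with GC offsets (0.15, edgeR adjusted p = 0.0822; 0.0965 without RANKL replicate 2, 0.0837 and 0.0577 without ENR control replicates 1 and 3, 0.074 without RANKL replicate 3). The Lgr4 call ended without ENR control replicate 1 or 3 or RANKL replicate 2 or 3 (edgeR adjusted p of 0.113, 0.0597, 0.0935 and 0.0552).

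Other lists moved in the same libraries, and their genes are given with log2 changes. Proliferation genes gave 14 lower and 1 higher of 20, with the replicative helicase genes Mcm5 at -1.31, Mcm6 at -1.13 and Mcm3 at -1.09, and a summed level of 3004 to 3299 CPM in ENR control and 2208 to 2443 CPM with RANKL. Paneth genes, of the cells that neighbour stem cells in the crypt, gave 8 lower and 1 higher of 9 tested: Habp2 was at -2.92, Lyz1 at -1.84 and Mmp7 at 2.16, and the list summed to 551 to 942 CPM in ENR control and 382 to 398 CPM with RANKL. All 9 tested M cell genes rose, with Anxa5 at 5.47, Spib at 5.77 and Prnp at 5.92, from 59.2 to 64.8 CPM in sum to 1036 to 1113 CPM. Goblet genes gave 4 higher and 3 lower of 8 (Guca2a 3.38, Clca1 3.10, Zg16 4.25), mature enterocyte genes 4 higher and 6 lower of 10 (Alpi 1.98, Apoa1 1.87, Sis 0.85 or 0.50 with GC offsets), tuft genes 4 higher of 7 (Dclk1 1.37, Ptgs1 1.46, Avil 0.80) and enteroendocrine genes 1 lower of 3 (Chga -1.42). The goblet genes called lower were Spdef at -2.05, Agr2 at -1.12 and Muc2 at -0.87, and the enterocyte genes called lower were Fabp1 at -1.64, Lct at -1.51, Fabp2 at -1.23, Mttp at -0.74, Slc5a1 at -0.47 and Vil1 at -0.33 (-0.16 with GC offsets, edgeR adjusted p = 0.0514). These 9 were named after their values were seen. The enterocyte list's median log2 change was -0.40, while its summed level was 1635 to 1826 CPM in ENR control and 2911 to 3926 CPM with RANKL. Stromal and endothelial genes gave 2 higher and 1 lower of 3 tested (Pdgfrb 1.58, Vwf 0.94, Pdgfra -1.39), within a sum of at most 32.1 CPM, and the single tested immune gene did not pass. The part of these cell types in the members' changes was not tested.

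In the second table, organoids with RANKL and CSRM617 were set against those with RANKL alone. Tnfrsf19, Prom1, Lgr5, Mex3a and Rgmb fell with CSRM617, Olfm4 and Smoc2 rose, Ascl2 and Msi1 did not pass, and Gkn3 was too low to be tested. Of the 9 tested, 5 were lower and 2 higher by edgeR, where 36.2% of all 14167 genes were called lower, 35.2% higher and 71.4% in either direction. The groups did not overlap for 7 of the 9, as for 73.1% of all genes. With GC offsets 7 were lower and 2 higher, beside 30.6% and 32.9% of all genes, or 63.6% in either direction. The median log2 change of the 9 was -0.23 and -0.49 with offsets, against -0.02 and 0.00 over all genes.

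Tnfrsf19 was at 40.5, 41.6 and 44.8 CPM in RANKL II and at 8.55, 10.8 and 10.2 CPM with CSRM617. The groups were far apart, and the fold change was -2.09 on the log2 scale (SE 0.0853, edgeR adjusted p = 4.15e-25), or -2.15 with GC offsets. This change was larger in size than that of 98.9% of all genes tested. Thus the member with the largest rise under RANKL also had the largest fall with CSRM617 of the 9 tested members, in libraries of separate tables with no library in common.

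Prom1 was at 240.8, 245.6 and 236.8 CPM in RANKL II and at 127.4, 129.1 and 134.9 CPM with CSRM617. Its log2 change was -0.88 (SE 0.0348, edgeR adjusted p = 1.15e-25), and -0.70 with GC offsets. Rgmb fell from 54.5 ± 1.06 to 46.4 ± 1.63 CPM (SD, n = 3), by 0.23 on the log2 scale (SE 0.0562, edgeR adjusted p = 0.000289). Among these membrane proteins the fall of the BMP co-receptor was thus the smallest.

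Lgr5 was at 11.6, 11.6 and 10.9 CPM in RANKL II and at 5.52, 6.68 and 6.53 CPM with CSRM617, from 361 and 214 counts over the groups. The groups did not overlap, and the log2 change was -0.85 (SE 0.125, edgeR adjusted p = 9.19e-08), or -0.57 with GC offsets. The RNA-binding gene Mex3a fell from 32.0 ± 2.07 to 26.5 ± 0.811 CPM (SD, n = 3), by 0.26 on the log2 scale (SE 0.0713, edgeR adjusted p = 0.00116), and by 0.49 with GC offsets.

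Olfm4 was at 17.5, 22.6 and 18.7 CPM in RANKL II and at 33.5, 34.3 and 35.5 CPM with CSRM617. All 3 CSRM617 libraries were above all RANKL II libraries, by 0.82 on the log2 scale (SE 0.0787, edgeR adjusted p = 1.36e-12), and by 1.30 with GC offsets. Smoc2 was at 47.2, 44.3 and 46.8 against 55.4, 53.2 and 52.7 CPM, higher by 0.22 on the log2 scale (SE 0.0565, edgeR adjusted p = 0.000739). Of the secreted and matrix members, these 2 rose. Gkn3 was not tested and had 4, 1 and 5 counts in RANKL II and 1, 0 and 1 with CSRM617, a ratio of 5.33 in favour of RANKL II (exact 95% interval 1.13 to 50, counting error only).

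Ascl2 was at 6.32, 7.93 and 6.73 CPM in RANKL II and at 7.36, 6.92 and 7.82 CPM with CSRM617, and the groups overlapped. Its log2 change was 0.08 (SE 0.137, edgeR adjusted p = 0.611, and between 0.00773 and 0.896 in its alternatives), and with GC offsets it was called lower at -0.40 (edgeR adjusted p = 0.00773). The direction for Ascl2, whose longest transcript has the highest GC content of the members (59.6%), therefore depends on the treatment of GC content. Msi1, with 57.9% GC, was at 44.2, 46.7 and 43.2 against 40.1, 41.0 and 44.0 CPM. The groups overlapped, and the fold change was -0.09 on the log2 scale (SE 0.0608, edgeR adjusted p = 0.165, and between 1.71e-17 and 0.473 in its alternatives). With GC offsets it was called lower at -0.53, and with upper-quartile factors at -0.14.

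**Figure D2:**
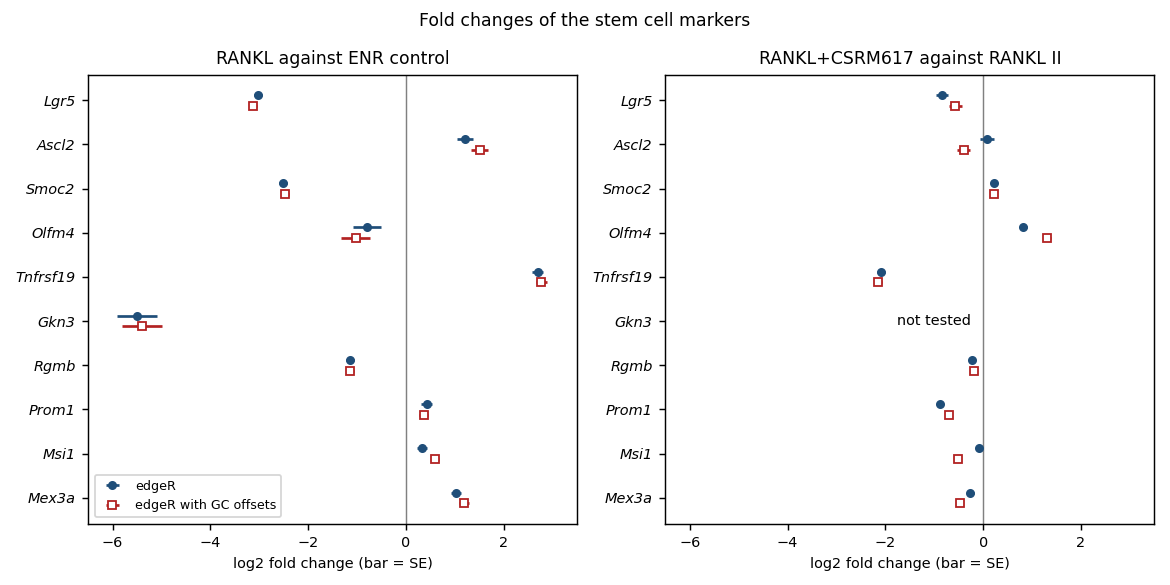
Log2 fold changes of the members in each comparison with bars of 1 SE, from the edgeR fit (filled circles) and the fit with GC offsets (open squares). Lgr5 is lower in both panels, Tnfrsf19 turns from 2.70 to -2.09, Gkn3 was not tested in the second, and Ascl2 crosses 0 in the second panel when GC offsets are used (0.08 and -0.40).

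In the list of other stem cell genes, 12 of 23 were called lower with CSRM617 and 8 higher (5 higher with GC offsets), with a median log2 change of -0.09 and -0.25 with offsets. On the log2 scale Cd44 was at -1.19, Lgr4 at -0.96, Cdk6 at -0.85, Igfbp4 at -1.10, Aqp4 at -1.55 (-1.002 with GC offsets) and Soat1 at -1.10. Myb, a transcription factor of crypt progenitors, rose by 1.09, Clca4a by 0.86, Ephb2 by 0.60 (0.27 with GC offsets) and Nav1 by 0.60. Axin2, the negative feedback gene of Wnt signalling, was called at 0.35 and Lrig1 at 0.31, and GC offsets ended both calls (0.06 and -0.02). Cd44, Cdk6 and Lgr4 thus were called higher in the first comparison and lower in the second, as were the members Tnfrsf19, Prom1 and Mex3a. Axin2, Lrig1, Ephb2, Ephb3, Myb, Nav1 and the member Smoc2 went the other way, called lower in the first and higher in the second. With GC offsets Ephb3 was called lower in the second (-0.25). The share of all genes that changed direction was not counted. The 2 comparisons share no library, and the difference between them was not tested.

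**Figure D3:**
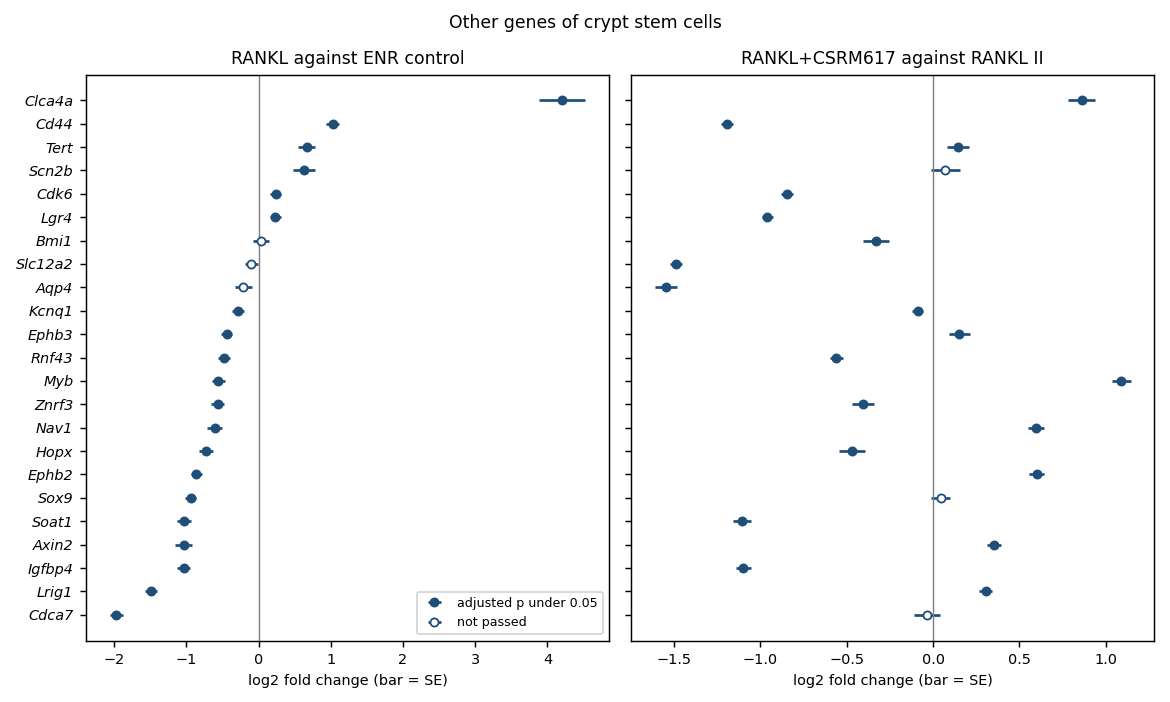
Log2 fold changes of the 23 tested genes of the list of other stem cell genes, with bars of 1 SE, ordered by the first comparison, filled where the adjusted p was under 0.05. On the left 14 genes lie below 0 and 6 above among those that passed, and on the right 12 and 8, and the order of the genes on the left is not kept on the right. The axes of the panels differ in range.

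Proliferation genes gave 9 higher and 4 lower of 20 with CSRM617, with, as log2 changes, Mki67 at 1.15, Top2a at 0.52 (0.90 with GC offsets) and Ccnd2, a cyclin of the G1 phase, at -0.34, and a sum of 1383 to 1399 against 1451 to 1490 CPM. Paneth genes gave 8 higher and 1 lower of 10 (Itln1 1.74, Lyz1 1.92, Defa24 1.57), with a sum of 573 to 587 against 923 to 954 CPM. Lyz1, Defa24 and Clca4a have near-identical copies with which reads could be shared, so their values are uncertain. All 10 mature enterocyte genes rose (Mttp 1.57, Apoa4 1.85, Apoa1 1.33), with a sum of 4233 to 4311 against 10080 to 10416 CPM. M cell genes gave 4 higher and 5 lower of 9 (Ccl9 -0.94 or -0.46 with GC offsets, Marcksl1 0.54 or 0.10, Prnp -0.57), goblet genes 4 higher and 3 lower of 8 (Muc2 0.98, Fcgbp 0.51 or 0.08 with GC offsets, Zg16 -0.72), tuft genes 5 higher and 1 lower of 7 (Trpm5 0.65 or 0.33 with GC offsets, Avil 0.76 or 0.45, Dclk1 0.56) and enteroendocrine genes 3 higher of 4 (Chgb 1.30, Chga 1.58, Sct 0.83). With GC offsets the goblet list had 3 higher and 4 lower, and its median log2 change went from 0.12 to -0.17. Sct, from few counts, was not called by DESeq2 (adjusted p = 0.14), with GC offsets (0.311), or without RANKL II replicate 1 (0.0771), RANKL II replicate 3 (0.0591) or RANKL+CSRM617 replicate 3 (0.0753). Of the stromal and immune genes, Pdgfrb was called at 0.34 and Cd68 at 0.78, and the Pdgfrb call ended with GC offsets (0.03), with DESeq2 (adjusted p = 0.0633) and without RANKL II replicate 2 (adjusted p = 0.0572). The part of these lists in the members' changes was not tested.

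Levels were then compared between members as CPM per kilobase of annotated exon. In ENR control the order was Olfm4 (224 ± 60.6), Smoc2 (83.5 ± 0.766), Lgr5 (41.4 ± 2.85), Rgmb (26.7 ± 1.02), Prom1 (21.2 ± 1.54), Gkn3 (15.5 ± 3.34), Msi1 (13.1 ± 1.29), Ascl2 (7.37 ± 1.30), Mex3a (6.09 ± 0.341) and Tnfrsf19 (2.49 ± 0.234), as mean ± SD with n = 3. The ranges overlapped between Gkn3 and Msi1 and between Ascl2 and Mex3a, and no other neighbours overlapped. With RANKL, Olfm4 (129 ± 39.3) and Prom1 (28.4 ± 4.36) led, and Lgr5 had gone from rank 3 to rank 9 at 5.08 ± 0.118 CPM per kilobase, above Gkn3 alone. Ascl2, Tnfrsf19, Msi1 and Smoc2 followed Prom1 with overlapping neighbours (17.2, 16.3, 16.3 and 14.6), then Mex3a and Rgmb, which overlapped (12.4 and 11.97).

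In RANKL II the order per kilobase was Prom1 (33.6 ± 0.614), Tnfrsf19 (8.93 ± 0.475), Msi1 (7.71), Rgmb (7.10), Smoc2 (6.63), Olfm4 (6.61), Mex3a (5.53), Ascl2 (4.31), Lgr5 (1.11 ± 0.0412) and Gkn3 (0.357 ± 0.205), with an overlap of neighbours between Smoc2 and Olfm4 alone. With CSRM617 Prom1 still led at 18.2 ± 0.544, Olfm4 went from rank 6 to rank 2 at 11.6 ± 0.333, and Tnfrsf19 from rank 2 to rank 8 at 2.08 ± 0.244. Smoc2 (7.73) and Msi1 (7.19) overlapped, as did Mex3a (4.58) and Ascl2 (4.54), with Rgmb (6.05) between these pairs and Lgr5 (0.608 ± 0.0616) and Gkn3 (0.0735 ± 0.0657) last. Lgr5 was therefore at rank 9 of the 10 in all 3 groups that had RANKL.

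**Figure D4:**
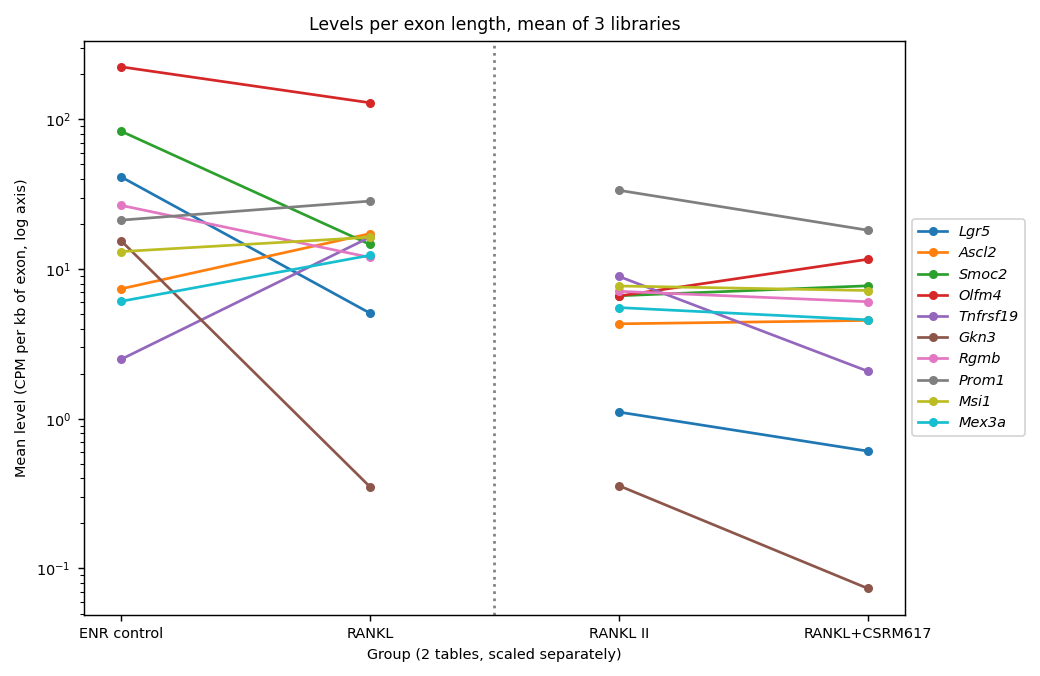
Mean level of each member in each group as CPM per kilobase of exon on a log axis, each point the mean of 3 libraries, joined within a table. Lgr5 drops from 41.4 to 5.08 between ENR control and RANKL, and Tnfrsf19 rises from 2.49 to 16.3 on the left and drops from 8.93 to 2.08 on the right.

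The RANKL and RANKL II groups carry the same treatment label, and their levels are given side by side. In CPM, Olfm4 was at 382.5 ± 116 in RANKL and 19.6 ± 2.65 in RANKL II, Lgr5 at 52.1 ± 1.21 and 11.4 ± 0.423, and Ascl2 at 28.0 ± 5.35 and 6.99 ± 0.839 (SD, n = 3). Prom1 was at 204.1 ± 31.3 and 241.1 ± 4.41 CPM, Gkn3 at 0.301 ± 0.345 and 0.306 ± 0.176 CPM, and the 10 members together at 970 to 1189 and 494 to 507 CPM. These levels were scaled in separate tables and were not tested against each other. The proliferation list summed to 2208 to 2443 CPM in RANKL and 1383 to 1399 CPM in RANKL II.

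The likeness of patterns was measured as the root mean square difference of log2 CPM over the 12 libraries, after subtracting each gene's mean within a table. Among the members tested in both tables, Ascl2 and Mex3a were the most alike (0.207), and Msi1 was nearest to Mex3a (0.27) and Prom1 to Msi1 (0.326). Lgr5 and Smoc2 were nearest to each other (0.43), as were Olfm4 and Rgmb (0.474), and Lgr5 and Tnfrsf19 were the least alike (2.06). For genes outside the members, symbols made of Gm and a number, or ending in Rik or in a point and a number, were left out. Of the 11346 others tested in both tables, those nearest to Lgr5 were Ces2a, a carboxylesterase (0.242), Aqp1, a water channel (0.274), and Prss23, a serine protease (0.282). Next came Slc16a12, a transporter of the monocarboxylate family (0.287), and Cachd1 (0.30). These 5 genes were picked as the nearest of 11346, a choice favouring small values, and each was closer to Lgr5 than any other member. Their log2 changes were -2.47, -3.43, -2.47, -2.58 and -2.79 with RANKL, and -0.85, -1.39, -1.12, -0.53 and -0.15 with CSRM617, where Cachd1 did not pass (edgeR adjusted p = 0.177). These values describe 12 libraries in 4 groups, which share their groups, and carry no test.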

How the data were processed

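Total RNA of the 12 libraries was depleted of ribosomal RNA before sequencing, per the labels' protocols. The authors deposited 2 tables of raw counts per gene symbol and 2 normalized tables whose values lie on a log2 scale. STAR, HTSeq 0.13.5, DESeq2 1.34.0, mm10 and GRCm38 are named in the submitters' processing notes. The STAR version, the annotation, the strand setting and the log2 transformation: not given in the sources used here.

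Each table was tested separately with edgeR 4.0.16 in R 4.3.3 (quasi-likelihood, robust, TMM factors, filterByExpr defaults, no covariate), with Benjamini-Hochberg adjustment over all genes tested and a threshold of 0.05. The SE is the unshrunken log2 change over the square root of F. GENCODE M21 (GRCm38) matched 53431 symbols and supplied coordinates, exon lengths and the GC content of the longest transcript. GC offsets are a lowess fit of each library's log2 CPM deviation on GC. Patterns used log2 CPM with a prior count of 2. The fit was also run on simulated counts with the same dispersion for every gene, unlike the members here, and no result above rests on that run.

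All 10 members were named, and of the other lists the called genes with the smallest p: up to 6 per direction of other stem cell genes, and up to 3 each of the proliferation, Paneth, goblet, enteroendocrine, tuft, mature enterocyte, M cell, immune and stromal lists. The members and lists were chosen with earlier results of these data known. Alternatives were DESeq2 1.42.0, limma 3.58.1 on the log2 tables, RLE and upper-quartile factors, no filter, a CPM of at least 1 in all 3 libraries of a group, GC offsets, a replicate block, removal of ribosomal and mitochondrial genes, and each library left out.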

Additional observations from a re-analysis of the deposited data

How the results depend on the processing

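Over 304 refitted member values under the alternatives listed in the methods, 294 kept their direction and their side of the threshold. The exceptions were Olfm4 with RANKL, Msi1 with CSRM617 and Ascl2 with CSRM617, which turned from 0.08 to -0.40 with GC offsets and to -0.40 with GC offsets and the replicate block. Among 1104 values of other named genes 22 lost their call and 2 turned: Lrig1 with CSRM617 was -0.0173 with GC offsets and -0.0154 with GC offsets and the block. Other stem cell genes called higher with CSRM617 went from 8 to 5 with GC offsets and to 5 with both. The cause was not tested. Leaving out 1 library gave 5 members higher and 4 to 5 lower with RANKL, and 2 higher and 5 lower with CSRM617.

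The labels do not say whether the replicate numbers pair the libraries. Deviations of same-numbered libraries from their group means correlated by 0.0236, 0.11 and 0.0237 in the first comparison. In the second they correlated by -0.00907, 0.0267 and 0.042. Not every library correlated best with its own number. With 3 libraries per group, these values cannot decide whether the libraries were paired. With the replicate block the first comparison had 5 members higher and 5 lower, as Olfm4 passed at -0.82 (edgeR adjusted p = 0.0409), and the second 2 and 5. All genes called were 3893 higher and 3808 lower with the block in the first comparison, and 4977 and 5118 in the second. Gkn3, with 10 and 2 counts per group in the second table, did not pass the low-count filter there.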
